A study of Bos taurus with 14 samples.

Results

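The microRNA miR-21 was measured in the blood of cows as its 2 mature products, bta-miR-21-5p and bta-miR-21-3p, which come from the left and the right arm of the same hairpin. They were taken by name, as 2 of the 932 bovine (bta) and human (hsa) miRNA names listed over all 14 small RNA libraries, and both were listed in every library. The animals were 4 non-lactating Holstein cows with a rumen cannula, which ate a forage diet first (FD, 0% concentrate) and then a high-grain diet (HG, 65% concentrate) used as a model of subacute ruminal acidosis. Plasma of cows 1 to 4 and leucocytes of cows 1, 3 and 4 were sequenced on FD and in week 1 of HG, which gives 4 libraries for each diet in plasma and 3 for each diet in leucocytes. No cow received the diets in the opposite order, so diet and time cannot be told apart. The leucocytes were a buffy coat, a layer that also holds platelets and some erythrocytes, and their RNA was isolated with another kit than that of plasma, so sample type and kit cannot be told apart either.

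MiR-21 is transcribed as a long primary RNA that is cut to a hairpin in the nucleus and to a short duplex in the cytoplasm. One strand of the duplex, here the 5p strand, is usually kept by an Argonaute protein and guides it to target mRNAs such as that of PDCD4, whereas the 3p or passenger strand is mostly degraded. MiR-21 is transcribed more during inflammation through STAT3, AP-1 and NF-kB, is abundant in myeloid cells and activated lymphocytes, and circulates in plasma in vesicles and protein complexes. In the deposited files the 5p arm lay on the plus strand of chromosome 19 of the UMD3.1 build at positions 11033079 to 11033102, and the 3p arm at positions 11033118 to 11033139. The arms were thus 24 and 22 nucleotides long, with 15 bases of the hairpin's loop side between them. In the RefSeq genes of assembly ARS-UCD2.0, ordered by start position, MIR21 comes after VMP1, which codes for a membrane protein of autophagy. It comes before TUBD1, which codes for delta-tubulin. Gene ends were not compared, so this order does not say whether MIR21 overlaps a neighbour. PTRH2 and RPS6KB1 are the next genes outwards.

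The number of reads assigned to miRNAs set the precision of every value. It was between 376589 and 4464702 in the plasma libraries and between 21764579 and 66070770 in the leucocyte libraries. Markers of blood cells were present throughout, since all 6 erythrocyte, 6 leucocyte, 3 platelet or endothelial and 3 liver miRNAs of the lists used were found in every library. In the leucocyte libraries the erythrocyte list (miR-451, miR-144, miR-486, miR-363, miR-96 and miR-183) took 29.8% to 42.6% of assigned reads and the leucocyte list (both arms of miR-142, miR-150, miR-155, miR-223 and miR-342) took 2.99% to 4.80%. The liver list (miR-122, miR-192 and miR-194) was between 0.123% and 0.147% there and between 0.837% and 7.04% in plasma. Of these, miR-122 alone took 0.00167% to 0.00757% in leucocytes and 0.517% to 6.17% in plasma. In leucocytes the list was thus mostly miR-192 and miR-194. In bulk samples a change in the number of cells of one type and a change in the RNA of each cell cannot be told apart.

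MiR-21-5p was among the most abundant miRNAs in both sample types. With names of identical counts taken once, it held rank 2 by reads in 7 of the 8 plasma libraries and rank 1 in the library of cow 1 on HG. In leucocytes it held rank 3 in 5 of 6 libraries and rank 4 in cow 1 on HG. Names with unequal counts were counted apart, even where a bovine and a human name stand for the same miRNA. The paper lists bta-miR-451 and hsa-miR-451a above miR-21-5p in both sample types. In the leucocyte libraries on FD no names above miR-21-5p had merged, whereas in plasma of cow 1 on FD its rank over all names was 3. The ranks of plasma and leucocytes are therefore not directly comparable. MiR-21-3p held rank 178 to 259.

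In plasma on FD, miR-21-5p had 44764, 111711, 132323 and 242508 reads in cows 1 to 4, which was 11.9%, 7.82%, 7.53% and 7.85% of all reads assigned to miRNAs. On HG it had 563303, 93660, 103450 and 297045 reads, or 12.6%, 9.60%, 9.73% and 8.74%. Cow 1 had the highest share of miR-21-5p on both diets, and the other 3 cows lay close together. In leucocytes on FD, cows 1, 3 and 4 had 4447894, 4591598 and 1546051 reads of miR-21-5p, or 6.73%, 8.14% and 7.10% of assigned reads. On HG they had 2905612, 2169139 and 1448006 reads, or 5.42%, 5.55% and 5.26%. The 3 HG leucocyte libraries lay within a narrow range below all FD leucocyte libraries.

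The order of the mean shares was plasma HG with 10.2% ± 1.69 (SD, n = 4), plasma FD with 8.77% ± 2.08 (SD, n = 4), leucocytes FD with 7.33% ± 0.730 (SD, n = 3) and leucocytes HG with 5.41% ± 0.146 (SD, n = 3). Neighbours in this order overlapped, except the leucocyte libraries on FD and HG, which were apart. For a single library the 95% Wilson interval was narrow, such as 7.78% to 7.87% for cow 2 in plasma on FD. These intervals cover counting error only and may be too narrow even for that, because reads without molecular identifiers are not independent molecules. The spread between cows was far wider than these intervals for miR-21-5p.

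**Figure D1:**
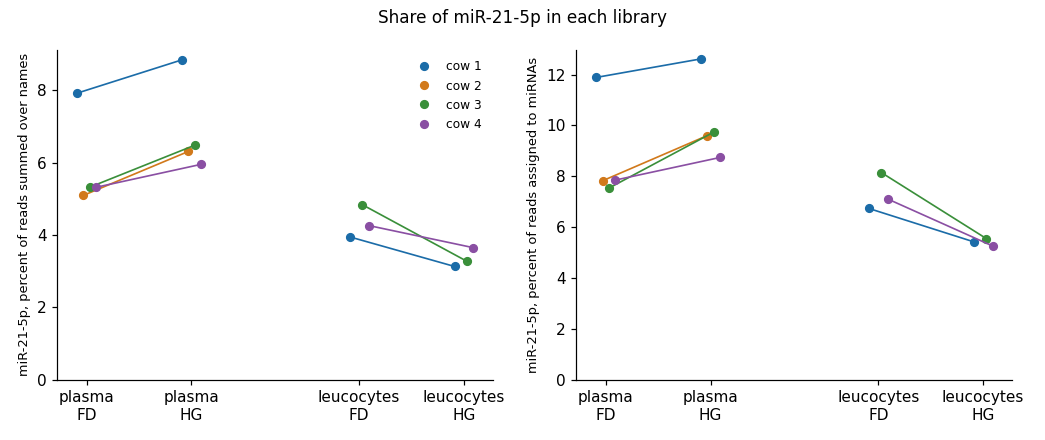
Share of miR-21-5p in each of the 14 libraries, as a percent of the reads summed over all names (left) and of the reads assigned to miRNAs (right). Points are libraries, colours are cows and lines join the FD and HG library of a cow. The HG point lies above the FD point in 4 of 4 plasma cows and below it in 3 of 3 leucocyte cows.

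The tests used another denominator, the sum of reads over all names, where reads with more than 1 matching name enter more than once. Forage-fed plasma averaged 5.91% ± 1.34 (SD, n = 4) of miR-21-5p on this scale, and the HG plasma libraries averaged 6.89% ± 1.32 (SD, n = 4). The HG value exceeded that on FD by 0.921 points in cow 1, 1.21 in cow 2, 1.16 in cow 3 and 0.634 in cow 4. The mean difference of 0.981 ± 0.264 percentage points (SD) gave p = 0.125 in an exact two-sided sign-flip permutation test over cows, the smallest p that 4 cows allow. Of the 551 names with at least 10 reads, 13.1% were higher with HG in every plasma cow by this measure and 12.9% as a percent of assigned reads. The FD and HG libraries overlapped.

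Markers of blood cells and liver were read in the same plasma libraries. The leucocyte list was higher on HG in 4 of 4 cows, with 2.13% to 2.73% of assigned reads on FD and 2.82% to 3.13% on HG. The liver list had a median of 5.80% on FD and 2.67% on HG and was lower in 3 of 4 cows. The erythrocyte list had no common direction, with 16.6% on FD and 5.68% on HG in cow 1, but 8.94% and 17.2% in cow 3. Its median was 13.6% on FD and 13.7% on HG. With the erythrocyte miRNAs taken out of the denominator, miR-21-5p took a larger share with HG in 3 of 4 cows, with a mean difference of 0.977 ± 1.20 points (SD, n = 4; exact sign-flip permutation test, p = 0.25). The part of the leucocyte and liver lists in the plasma result was not tested.

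Fitted across all 538 plasma names, miR-21-5p did not pass the test for diet. The log2 fold change of HG over FD was -0.18 (SE 0.40), with an adjusted p of 0.956 (edgeR quasi-likelihood test, Benjamini-Hochberg). As CPM (estimated counts scaled to a common library size with TMM, a correction for composition), cows 1 to 4 had 57793, 60558, 65739 and 78046 of miR-21-5p in forage-fed plasma. With HG they had 95099, 48404, 43541 and 55251. Cow 1 was higher on HG and the other 3 cows were lower, whereas the share was higher in all of them. TMM factors, which rescale each library, ranged from 0.681 to 1.42 in plasma. With library size as the only scaling the log2 fold change was 0.23 (SE 0.33, adjusted p = 0.850 by edgeR). The median log2 fold change of all plasma names also moved with the scaling, from 0.25 with TMM to 0.67 with library size. Relative to that median, miR-21-5p stood at -0.43 and -0.44 under these scalings. Both shift all names of a fit nearly alike, so this likeness is no separate support. MiR-21-5p was below the median of all names in 16 of 16 settings, but only at -0.10 with at least 10 reads in every library. No plasma name was called by edgeR (0% of 538 names, with 55 at an unadjusted p under 0.05), while DESeq2 called 12 names, or 2.23%, and neither arm of miR-21 was among them.

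In leucocytes miR-21-5p took 4.35% ± 0.451 (SD, n = 3) of summed reads with forage and 3.35% ± 0.268 (SD, n = 3) with HG. It was lower with HG in 3 of 3 cows, as were 16.4% of the 800 names, with differences of -0.818 points in cow 1, -1.57 in cow 3 and -0.613 in cow 4. The mean difference of -0.9995 ± 0.503 percentage points (SD) gave p = 0.25 (exact sign-flip permutation, two-sided), the smallest p that 3 cows allow. The FD and HG libraries did not overlap, with 3.94% as the lowest value on FD and 3.65% as the highest on HG. All HG libraries were below all FD libraries for 4.88% of 800 leucocyte names on this scale, and for 9% as a percent of assigned reads. The HG library of cow 4 had summed reads 1.44 times its assigned reads, against 1.67 to 1.73 in the other leucocyte libraries. As a percent of estimated counts miR-21-5p was at 3.08% in it.

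As TMM-scaled CPM, miR-21-5p was at 44032, 49789 and 35504 on FD and at 35327, 33236 and 26745 on HG in leucocytes of cows 1, 3 and 4. Every HG value was below every FD value, which on this scale was the case for 6.52% of the 782 names tested. The log2 fold change was -0.44 (SE 0.12), with an adjusted p of 0.0898 (edgeR quasi-likelihood test). MiR-21-5p thus held rank 23 of 782 by p and did not pass the threshold of 0.05, which 1.92% of names passed. A larger change in size was fitted for 32.2% of the names. DESeq2 gave the same log2 fold change of -0.44 (SE 0.15) with an adjusted p of 0.0515, and 0.0389 where its independent filtering was set to 0.05, and called 3.2% and 4.09% of names under these settings.

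Leaving out cow 4 took miR-21-5p past the threshold in leucocytes. Without cow 4 the adjusted p was 0.00095 at a log2 fold change of -0.45 (SE 0.11; edgeR), in a fit that called 102 of 750 names, whereas 15 of 782 were called with all cows. Without cow 1 or cow 3 the adjusted p was 0.611 and 0.992. Without the block for cow it was 0.732. The fits with 1 cow left out held only 2 cows, so their p-values rest largely on the spread shared across names. The log2 fold change without cow 4 was close to that of -0.44 with all cows. The direction was the same in all 15 settings with a model across names, and the change relative to the median of all names was between -0.52 and -0.31.

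Scaled to miR-103 and miR-107, miRNAs in common use as references, miR-21-5p in leucocytes changed by -0.44 in cow 1, -0.89 in cow 3 and -0.75 in cow 4 on the log2 scale. The mean was -0.69 ± 0.23 (SD, n = 3; exact sign-flip permutation test, p = 0.25). In plasma the same ratio changed by -0.25, 0.27, 0.16 and 0.33 in cows 1 to 4, with a mean of 0.13 ± 0.26 (SD, n = 4; exact sign-flip permutation test, p = 0.375). In the same leucocyte libraries the platelet and endothelial list (both arms of miR-126, and miR-199a-3p) was higher on HG in 3 of 3 cows. It took 0.302% to 0.371% on FD and 0.402% to 0.419% on HG. This list was mostly miR-199a-3p, with 975403 reads over these libraries, against 2859 for miR-126-5p and 16042 for miR-126-3p. The erythrocyte list was higher on HG in 2 of 3 cows and the leucocyte list in 1 of 3. Their part in the result was not tested.

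**Figure D2:**
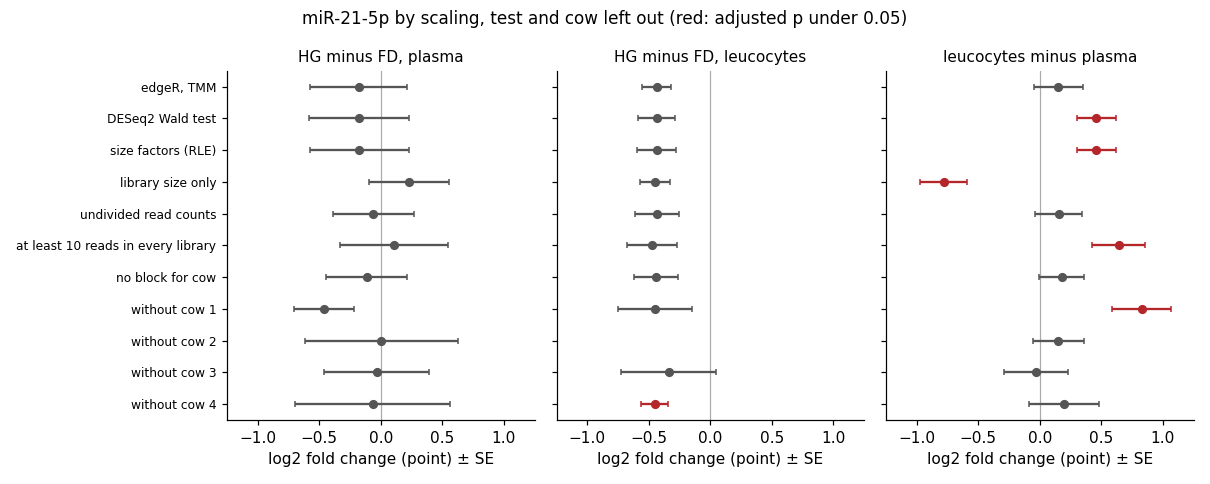
Log2 fold change (points) and standard error (bars) of miR-21-5p for HG against FD in plasma, HG against FD in leucocytes, and leucocytes against plasma, under each test, scaling, filter or cow left out. Red marks an adjusted p under 0.05. All points for leucocytes lie below 0, whereas those for plasma and for the difference between sample types lie on both sides of 0.

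The share of miR-21-5p thus moved in opposite directions in every cow of the plasma and leucocyte series. The leucocyte difference minus the plasma difference was -1.90 ± 0.754 percentage points (SD) over the 3 cows measured in both and was below 0 in 3 of 3 cows (exact sign-flip permutation test, p = 0.25). With the 7 differences taken as separate samples, an exact permutation test of the sample type labels gave p = 0.0286, the smallest that 35 splits allow, and 0.0571 after adjustment over the 2 arms, although these differences come in part from the same cows. This test was chosen after the values were seen. In the model across 800 names, the difference between the diet effects of miR-21-5p was -0.07 (SE 0.37, adjusted p = 1 by edgeR), and with library size as the only scaling -0.68 (SE 0.25, adjusted p = 0.241). For this difference edgeR called 0% of the 800 names, with 93 at an unadjusted p under 0.05, and DESeq2 called 6, or 0.75%. Neither arm of miR-21 was among them.

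MiR-21-3p, the passenger strand, was near the detection limit in several plasma libraries. On FD it had 2, 4, 139 and 45 reads in cows 1 to 4, which was 5.31, 2.80, 79.1 and 14.6 RPM, the reads scaled to a common number of assigned reads. On HG it had 52, 14, 79 and 124 reads, or 11.6, 14.4, 74.3 and 36.5 RPM. Cow 3 had the highest level of miR-21-3p on both diets, while cow 1, which was highest for miR-21-5p, was among the 2 lowest. A count of 2 reads in the smallest library leaves a 95% Wilson interval of 1.46 to 19.4 RPM, which spans the value of the same cow on HG.

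In leucocytes miR-21-3p had 780, 732 and 355 reads on FD and 618, 357 and 296 on HG in cows 1, 3 and 4. These were 11.8, 13.0 and 16.3 RPM on FD and 11.5, 9.13 and 10.7 on HG. The HG level was 0.977 times that on FD in cow 1, 0.704 times in cow 3 and 0.659 times in cow 4. It was thus lower in each cow, as for 19.1% of leucocyte names on this scale, and the diets did not overlap, as for 9% of names, although cow 1 hardly differed. As a percent of summed reads the diets did overlap, with up to 0.000745% on HG and down to 0.000692% on FD. The former was in cow 4, where summed reads were 1.44 times the assigned reads, against 1.67 to 1.73 in the other leucocyte libraries. As a percent of estimated counts the highest HG value was 0.000662% and the lowest FD value was 0.000687%.

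**Figure D3:**
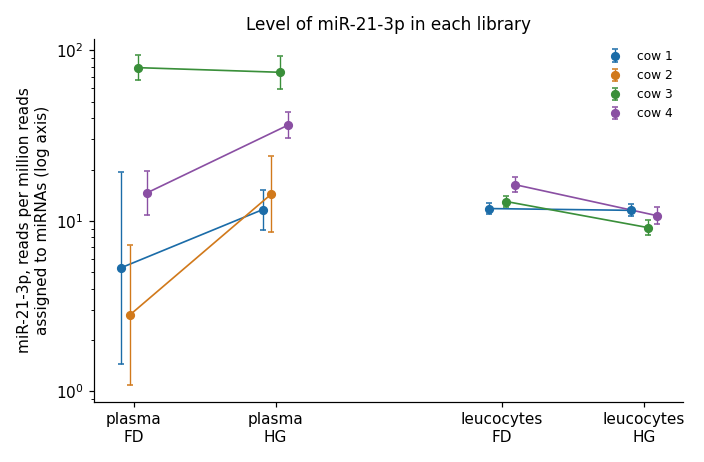
Level of miR-21-3p in each library in RPM of the reads assigned to miRNAs, on a log axis, with 95% Wilson intervals of the count as bars. Colours are cows and lines join the diets of a cow. In plasma the libraries spread from 2.80 to 79.1, and in leucocytes from 9.13 to 16.3.

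No diet effect on miR-21-3p passed the edgeR test. The sign-flip test could not pass the threshold, since its smallest possible p is 0.125 with 4 cows and 0.25 with 3 cows. It therefore does not decide whether there was an effect. In plasma 0.00178% ± 0.00256 (SD, n = 4) of summed reads were miR-21-3p with forage and 0.00230% ± 0.00192 (SD, n = 4) with HG, and the value was larger in 3 of 4 cows (exact sign-flip permutation test, p = 0.375). In leucocytes it was 0.000813% ± 0.000148 (SD, n = 3) with forage and 0.000649% ± 0.000105 (SD, n = 3) with HG, and lower in 3 of 3 cows (exact sign-flip permutation test, p = 0.25). In the model across all names its log2 fold change was 0.67 (SE 1.08, adjusted p = 0.950) in plasma and -0.38 (SE 0.22, adjusted p = 0.462) in leucocytes by edgeR. The plasma value turned to -0.30 (SE 1.20) without the block for cow. In leucocytes the TMM-scaled values of 7.72, 7.94 and 8.18 CPM on FD were all above those of 7.51, 5.49 and 5.47 on HG, as for miR-21-5p and 6.52% of the 782 names, whereas the shares of summed reads overlapped. At this depth a difference of a few reads could not be resolved in plasma.

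The ratio of the arms does not depend on the scaling of a library. In plasma there were 22382, 27928, 952 and 5389 reads of miR-21-5p for each read of miR-21-3p in cows 1 to 4 on FD, and 10833, 6690, 1309 and 2396 on HG. In leucocytes there were 5702, 6273 and 4355 on FD and 4702, 6076 and 4892 on HG in cows 1, 3 and 4. The leucocyte libraries lay close together, whereas the plasma libraries spread widely on both sides of them. The highest plasma ratios rest on few reads, with a 95% Wilson interval of 6138 to 81618 in cow 1 and of 10860 to 71817 in cow 2 on FD. The ratios of cow 3, with intervals of 806 to 1124 on FD and 1051 to 1632 on HG, lay below those of all other libraries on both diets.

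**Figure D4:**
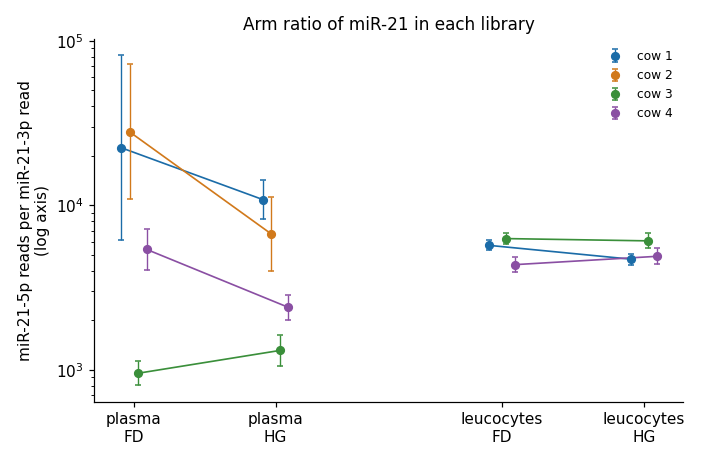
Reads of miR-21-5p for each read of miR-21-3p in each library, on a log axis, with 95% Wilson intervals as bars. Colours are cows and lines join the diets of a cow. The 6 leucocyte libraries lie between 4355 and 6273, and the 8 plasma libraries between 952 and 27928.

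With all cows, no difference in the arm ratio between diets or sample types was larger than its spread between cows. The log2 ratio in plasma was 12.88 ± 2.25 (SD, n = 4) with forage and 11.92 ± 1.38 (SD, n = 4) with HG, a difference of -0.95 ± 1.05 (SD) that was below 0 in 3 of 4 cows (exact two-sided sign-flip permutation test, p = 0.25). Without cow 3 it was -1.43 ± 0.55 (SD, n = 3) and below 0 in 3 of 3 cows (exact permutation p = 0.25), and without cow 2 it was -0.59. In leucocytes it was 12.39 ± 0.27 (SD, n = 3) and 12.34 ± 0.20 (SD, n = 3), a difference of -0.05 ± 0.22 (exact sign-flip permutation test, p = 0.75). The leucocyte ratio exceeded the plasma ratio of the same cow by 0.41 ± 2.03 (SD, n = 3 cows) on the log2 scale, and in 2 of 3 cows (exact sign-flip permutation test, p = 0.75).

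The arm ratio of miR-21 was set beside those of other bovine miRNAs with both arms named. In leucocytes 34 of 62 such pairs had at least 10 reads of each arm in every library, and miR-21 ranked first of them with a mean log2 ratio of 12.37. The next pair was miR-99a with 10.76, and the median of all pairs was 0.86. The 5p arm was the more abundant one in 22 of the 34 pairs. The range of the log2 ratio over the 6 leucocyte libraries was 0.53 for miR-21, smaller than in most pairs, with a median range of 0.96 and rank 30 of 34 from the widest. In plasma only 11 pairs reached 10 reads of each arm in every library, and miR-21 did not because of the 2 and 4 reads of its 3p arm in cows 1 and 2 on FD. A pair with a scarce arm fails this minimum most easily, so pairs more one-sided than miR-21 may be missing from the leucocyte ranking. For the same reason miR-21 was not ranked in plasma. Its mean log2 ratio there was 12.40 with a range of 4.87 over the 8 libraries.

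**Figure D5:**
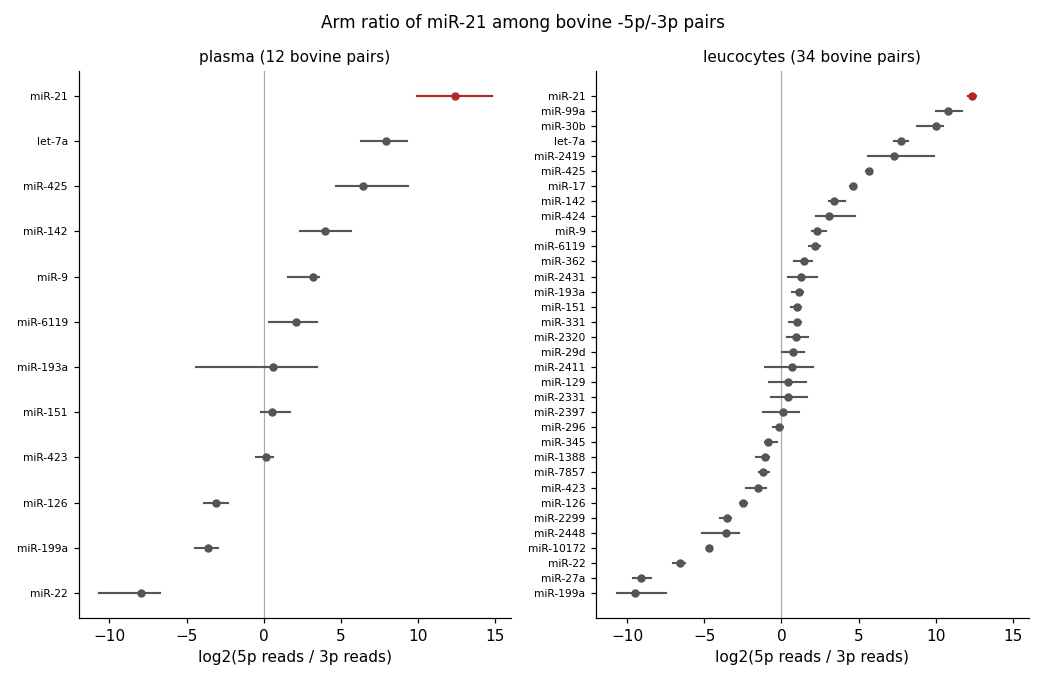
Log2 ratio of 5p to 3p reads for bovine miRNA pairs in plasma (left, 12 pairs over 8 libraries) and leucocytes (right, 34 pairs over 6 libraries). Points are means over libraries and lines run from the lowest to the highest library. MiR-21, in red, has the highest mean ratio of the pairs with at least 10 reads of each arm in every leucocyte library. In plasma it is drawn beside 11 such pairs without meeting that minimum itself, so its place there is no rank.

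Each arm was read as a set of distinct sequences, which differ in their ends or by the mismatches allowed in mapping. For miR-21-5p there were 181, 263, 239 and 315 distinct sequences in plasma on FD and 406, 272, 282 and 362 on HG in cows 1 to 4. In leucocytes there were 1170, 1155 and 720 on FD and 957, 784 and 731 on HG in cows 1, 3 and 4. The number was larger with HG in 4 of 4 plasma cows, by 0.41 ± 0.51 (SD) on the log2 scale (exact two-sided sign-flip permutation test, p = 0.125), but by 0.16 without cow 1, and changed by -0.28 ± 0.29 (SD, n = 3) in leucocytes (exact sign-flip permutation test, p = 0.5).

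The number of distinct sequences moved with the number of reads. Per read of miR-21-5p the plasma difference was -0.42 ± 1.41 (SD, n = 4) on the log2 scale and thus turned direction (exact sign-flip permutation test, p = 0.875). Per read the leucocyte difference turned to 0.32 ± 0.20 (SD, n = 3), and was above 0 in 3 of 3 cows (exact sign-flip permutation test, p = 0.25). For miR-21-3p there were 1 to 4 distinct sequences in the plasma libraries and 14 to 40 in the leucocyte libraries, where it also had more reads. For both arms the deposited estimated counts were 0.5 times the read counts apart from 0 to 24 reads in a library, so nearly every read was divided with 1 other name. The values used here do not say which name that was, and it was not analysed here.

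Whether miR-21-5p was higher in plasma or in leucocytes depended on the scale. As a share of summed reads it was 3.85% ± 0.273 (SD, n = 3 cows) in leucocytes and 6.64% ± 1.51 (SD, n = 3 cows) in plasma of the same cows, and lower in leucocytes in 3 of 3 cows, with a mean difference of -2.79 percentage points (exact two-sided sign-flip permutation test, p = 0.25, the smallest possible). In the model across 800 names with TMM scaling, leucocytes exceeded plasma by 0.15 (SE 0.20, adjusted p = 0.518 by edgeR) on the log2 scale. With size factors the difference was 0.46 (SE 0.16, adjusted p = 0.0270), and with library size it was -0.78 (SE 0.19, adjusted p = 0.00424), so both directions passed the edgeR test. The median of all names was 1.20 with TMM, 1.49 with size factors and 0.27 with library size. Relative to these medians miR-21-5p stood at -1.05, -1.03 and -1.05. These scalings shift all names of a fit nearly alike, so this likeness is no separate support. With another set of names the value moved to 0.63, where only the 257 names with at least 10 reads in every library were fitted. MiR-21-3p differed by -0.42 (SE 0.70, adjusted p = 0.604 by edgeR). Of the 800 names, edgeR called 47.9% between the sample types and DESeq2 49.2%, or 51.1% when filtered at 0.05.

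Other miRNAs known from inflammation were compared as a list of 14 names that included both arms of miR-21. In plasma edgeR called 0 of 14 (0% of all names), 0 of 14 had an unadjusted p under 0.05, and the median log2 fold change was 0.04, against 0.25 for all names. DESeq2 also called 0 of 14. In leucocytes edgeR called 1 of 14, which was lower, as were 1.53% of all names, and the median was -0.19, against -0.01 for all names. The one called was miR-146a, which represses the adaptors of Toll-like receptor signalling, with a log2 fold change of -0.84 (SE 0.14, adjusted p = 0.00895). MiR-146b, of the same family and also on the list, was at 0.23 (SE 0.15, adjusted p = 0.523 by edgeR).

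The other members of the list stood on both sides of miR-21 in leucocytes. MiR-147, which is induced by Toll-like receptors in macrophages, had a log2 fold change of -0.93 (SE 0.24, adjusted p = 0.0888 by edgeR). MiR-181c, known from T cell activation, was at -0.58 (SE 0.19, adjusted p = 0.179 by edgeR), and miR-181a of the same family at -0.07 (SE 0.17, adjusted p = 0.929). MiR-155, which is induced in activated macrophages and lymphocytes, was at -0.24 (SE 0.15), and miR-223, a miRNA of granulocytes, at 0.16 (SE 0.13). Neither passed the test, and 4 of the 14 names had an unadjusted p under 0.05, including miR-21-5p, beside 117 of all 782 names. Without cow 4 the edgeR count was 5 of 14, with 4 lower and 1 higher, beside 102 of all 750 names. Without cow 3 or without the block for cow it was 0 of 14, and 0 of all names were called there, with 24 and 45 at an unadjusted p under 0.05.

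The names whose levels ran most closely with each arm were taken from those with at least 10 reads in every library of a sample type. They were picked as the highest of many, and libraries of the same cow and the same scaling are shared, so the values are a description. Over the 8 plasma libraries and 211 names, miR-21-5p was most like miR-98 (Pearson r = 0.964, Spearman rho = 0.929), let-7f (r = 0.935, rho = 0.929) and miR-186 (r = 0.908, rho = 0.905), where miR-98 and let-7f belong to the let-7 family. The median r of all 211 names was 0.157. MiR-21-3p was most like miR-2284x (r = 0.867, rho = 0.833), miR-150 (r = 0.831, rho = 0.857) and miR-6529a (r = 0.691, rho = 0.5) in plasma. It did not meet the minimum of 10 reads itself, with 2 and 4 reads in cows 1 and 2 on FD, so these values rest on uncertain levels.

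In the 6 leucocyte libraries and 467 names, miR-21-5p was most like miR-2285k (Pearson r = 0.997, Spearman rho = 1), miR-28 (r = 0.974, rho = 1) and miR-1277 (r = 0.971, rho = 0.886), with a median r of 0.0183 over all names. For miR-21-3p the closest names were miR-27a-3p (r = 0.934, rho = 0.943), miR-215 (r = 0.918, rho = 0.886) and miR-424-5p (r = 0.908, rho = 0.486). No name was among the 3 closest of both arms in either sample type.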

How the data were processed

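Small RNA libraries of plasma (8) and leucocytes (6) were used. The authors demultiplexed reads with bcl2fastq 2.20, trimmed them with Skewer 0.2.2 and assigned them to miRBase 22 names of cattle and human on UMD3.1 using sRNAbench, allowing 2 mismatches. The deposited library files give read counts, distinct sequences as counts, estimated counts in which a read of several names is split between them, and scaled reads (a signal) from which the authors' number of assigned reads was recovered. Tables of normalized counts were not used here. Leucocyte libraries were paired by the animal letter in their titles. Plasma titles hold only a running number, so plasma pairs, and the match of plasma to leucocyte cows, rest on the cow order of the authors' supplementary tables of counts (504 of 504 plasma and 198 of 198 leucocyte values equal to the files). In plasma the profiles of the diets correlated at -0.52 to 0.44 for the same cow and at -0.66 to 0.75 for different cows. In leucocytes the correlations were 0.47 to 0.67 and -0.61 to 0.31.

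Estimated counts were rounded to whole numbers and tested with edgeR 4.0.16 (R 4.3.3; quasi-likelihood, robust, TMM; terms for cow and diet; 10 or more reads over all libraries; adjusted p under 0.05). DESeq2 1.42.0 was an alternative. The scripts were tested on simulated data. Shares, arm ratios and distinct sequences were tested by exact two-sided sign-flip permutation over cows, with no pseudocount. Named miRNAs were the members, the 14-name list, the 3 names closest to each arm and the arm pair ranked next to miR-21. Members and lists were chosen with earlier results of these data known.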

Additional observations from a re-analysis of the deposited data

Results flagged for a closer look

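Of the 14 sets of 4 plasma libraries examined for a sample far from the others, 4 had one by Dixon's ratio. Chance alone gives about 1 in 20 for a single set of normally distributed values. The sets are not independent, since shares of summed and of assigned reads use the same counts. The number of flags can therefore not be set against that rate. All 4 were on FD and concern 2 libraries. The share of miR-21-5p in cow 1 was 7.92% of summed reads and 11.9% of assigned reads, with the other 3 cows at 5.09% to 5.32% and 7.53% to 7.85%. This is the smallest library, with 376589 assigned reads. The share of miR-21-3p in cow 3 was 0.00559% of summed reads and 0.00791% of assigned reads, from 139 reads. Cow 1 for miR-21-5p and cow 3 for miR-21-3p were also the highest on HG, where neither stood apart by the same ratio.

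The diet difference in the share of miR-21-5p was 0.981 percentage points in plasma, above 0 in 4 of 4 cows, and -0.9995 in leucocytes, below 0 in 3 of 3 cows. The difference between them was tested over the 3 cows measured in both and in the edgeR model. Over the 3 cows the exact sign-flip permutation test could not pass the threshold (p = 0.25, the smallest possible). In the edgeR model the difference did not pass it (log2 difference -0.07, SE 0.37, adjusted p = 1). With the 7 differences taken as separate samples an exact permutation test gave p = 0.0286, or 0.0571 adjusted over the 2 arms. That test was chosen after the values were seen, and the differences come in part from the same cows.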

How the results depend on the processing

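For miR-21-5p in plasma the log2 fold change of -0.18 turned to 0.23 with library size, 0.23 with assigned reads as library size, 0.11 with at least 10 reads in every library and 0.13 scaled to miR-103 and miR-107, and ranged from -0.46 to 0.0027 with 1 cow left out. In leucocytes it kept its direction in every setting run, and was past the threshold with DESeq2 filtered at 0.05 (-0.44) and without cow 4. With 1 cow left out it ranged from -0.45 to -0.34. MiR-21-3p in plasma ranged from 0.37 to 1.29 with 1 cow left out. Between the sample types miR-21-5p passed the threshold with DESeq2 (0.46, also when filtered at 0.05), size factors (0.46) and at least 10 reads in every library (0.64), and turned to -0.78 with library size and -0.60 with assigned reads. With 1 cow left out it ranged from -0.031 to 0.83 (without cow 1, past the threshold) and miR-21-3p from -0.65 to 0.51.

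The replicate block was left out as the unpaired alternative. MiR-21-3p in plasma then turned to -0.30 and calls in the list of 14 in leucocytes went from 1 to 0. The block changed no other call on miR-21. Calls in that list were 2 with DESeq2, without the filter on low counts and with at least 10 reads in every library, 3 with DESeq2 filtered at 0.05, and 0 to 5 with 1 cow left out. Over all leucocyte names 15 were called by edgeR, 25 by DESeq2, 32 by DESeq2 filtered at 0.05, 9 with size factors, 24 with at least 10 reads in every library, 5 with bovine names only, 0 without the block and 0 to 102 with 1 cow left out. Between sample types 383 were called, and 195 with at least 10 reads in every library, where miR-21-3p could not be fitted. DESeq2 filtered at 0.05 called 12 names for the difference between diet effects.

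With 1 cow left out the plasma arm ratio ranged from -1.43 to -0.59 and the distinct sequences from 0.16 to 0.53 in plasma and from -0.42 to -0.13 in leucocytes. The leucocyte arm ratio ranged from -0.16 to 0.061 and the difference between sample types from -0.61 to 1.41 with 1 cow left out, and the latter turned to -1.66 with distinct sequences in place of reads. Distinct sequences per read turned to -0.42 in plasma and 0.32 in leucocytes. The cause of these moves was not tested. The shares kept their direction in all alternatives run. Assigned reads as denominator or library size and the DESeq2 filter at 0.05 were chosen after seeing the data. With few reads of miR-21-3p in plasma and 3 or 4 cows, small changes were not detectable.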
